A study of Mus musculus with 4 samples.

Results

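The keratin genes of the mouse were followed in RNA-seq libraries of samples labelled as primary colonic eosinophils. Members were the rows of the count table whose symbol is Krt followed by digits and at most one trailing letter, which leaves out the keratin-associated proteins. There were 54 such rows among 53819. Of these, 22 had no read in any library, 32 had reads and 22 passed a filter on low counts (at least 10 reads at the median library size in at least 2 libraries, and 15 in all). The DSS group came from C57Bl/6 mice with genotype WT given 3% DSS (dextran sulfate sodium, which damages the lining of the colon), and the water group from C57Bl/6 WT mice that received water as the control. Each group had 2 libraries, and every title carries the mark D6, which the labels do not spell out. The sources used here give neither the mice behind a library nor how the cells were isolated.

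Keratins are the intermediate filament proteins of epithelial cells. A filament is built from heterodimers of an acidic type I and a basic or neutral type II keratin, so that partners are made together, and which pair a cell makes marks its type. Simple, single-layered epithelia such as the colon carry Krt8 (type II) with Krt18 and Krt19 (type I), together with Krt7, and differentiated cells at the colonic surface add Krt20. Stratified squamous epithelia use other pairs, Krt5 with Krt14 in basal cells and Krt1 with Krt10 above them. A further group builds hair. Loss of Krt8 in mice causes colitis, which is why keratins are studied in this tissue. Granulocytes are not epithelial, and keratins are not among the genes that define them.

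On GRCm38 the 54 genes lay in 2 clusters of 27, at chr11:99232761-100269871 and chr15:101347444-102032027. All 54 symbols matched GENCODE vM21. Krt8 (ENSMUSG00000049382.10, chr15:101996698-102004482, minus strand) and Krt18 (ENSMUSG00000023043.7, chr15:102028180-102032027, plus strand) are neighbours in the chromosome 15 cluster. Krt20 (ENSMUSG00000035775.2, chr11:99428403-99438150, minus strand) and Krt19 (ENSMUSG00000020911.14, chr11:100140810-100148665, minus strand) are in the other. The bases before the start sites of Krt8, Krt18 and Krt20 are shown because Krt8 and Krt18 are the classical pair of simple epithelia and Krt20 the keratin of differentiated colonocytes, and the 3 genes followed the same order of libraries, as described further on. The sequences are from RefSeq on GRCm38.p6, 5′ to 3′ on the strand of the gene, cut back to bases outside every exon of vM21, so that they end 140 bases (Krt8), 36 bases (Krt18) and 0 bases (Krt20) short of the start in the table's window. Capitals mark letters that match a TATA box (TATAAA) or a CDX-like motif (TTTATNG), both searched on both strands.
Krt8, chr15:102004483-102004592: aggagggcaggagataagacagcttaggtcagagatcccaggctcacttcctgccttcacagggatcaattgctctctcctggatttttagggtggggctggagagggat
Krt18, chr15:102027966-102028179: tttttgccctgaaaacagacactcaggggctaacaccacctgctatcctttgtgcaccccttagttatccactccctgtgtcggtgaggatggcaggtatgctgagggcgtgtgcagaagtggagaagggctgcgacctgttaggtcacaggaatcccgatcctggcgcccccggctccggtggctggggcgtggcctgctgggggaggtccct
Krt20, chr11:99438154-99438403: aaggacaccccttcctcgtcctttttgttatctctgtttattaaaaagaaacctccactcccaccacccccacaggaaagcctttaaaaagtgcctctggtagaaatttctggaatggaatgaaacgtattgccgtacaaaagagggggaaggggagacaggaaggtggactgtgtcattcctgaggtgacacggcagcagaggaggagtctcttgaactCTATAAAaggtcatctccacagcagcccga
In the Krt20 window of 250 bases the TATAAA letters and the CDX-like letters on the opposite strand overlapped, giving 1 match each. TATAAA stood in 12.4% and TTTATNG in 9.81% of the 32851 RefSeq windows cut at the same distance. Neither motif, nor a GC box (GGGCGG), was found in the windows of Krt8 (110 bases) or Krt18 (214 bases). These windows leave out the 140 and 36 bases nearest the start, so a match there could not be found. In windows like those of Krt8 and Krt18, TATAAA stood in 5.63% and 9.71%, and TTTATNG in 4.54% and 8.2%. A GC box stood in 11.6% and 27.6% of all windows of those lengths and distances and in 32.7% of windows like that of Krt20, which had none.

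Total counts ran from 30985905 to 34126329 per library. The label of the samples was set against defining markers. The epithelial list (8 genes, among them Epcam, a surface protein of epithelial cells) summed to 1851 and 4644 CPM in DSS and 5236 and 3000.3 CPM in water, and 9 eosinophil markers to 51.0 and 128 CPM in DSS and 3.62 and 29.4 CPM in water. CPM are counts scaled to a common library size with edgeR's TMM factors. Epx, a granule protein that defines eosinophils, had 0 and 12 reads in DSS and 0 and 14 reads in water. Other markers of the list had more reads. Ccr3 had 542 and 2350 in DSS and 4 and 413 in water, and Siglecf 299 and 1269 in DSS and 28 and 419 in water. Prg2 had 319 and 300 in DSS and 54 and 26 in water. Of the 6 eosinophil markers tested, 5 log2 fold changes lay above 0 and 1, that of Epx, below, and edgeR called none. In bulk RNA, fewer cells of a type and less RNA per cell cannot be told apart. Other tissues also differed between libraries: 7 prostate markers summed to 0.0744 and 0.228 CPM in DSS and 629.9 and 629 CPM in water, and 9 exocrine pancreas markers to 10.9 and 21.7 CPM in DSS and 15535 and 38.0 CPM in water. Among immune cells, 7 neutrophil markers summed to 1138 and 1538 CPM in DSS and 39.4 and 151 CPM in water. The 5 plasma and B cell markers summed to 34568 and 6945 CPM in DSS and 6476 and 5558 CPM in water. The sum was highest in DSS library 1, where every abundant keratin was lowest. Most of it was Jchain, with 34138 and 6807 CPM in DSS and 6382 and 5395 CPM in water. Mzb1, Cd79a and Cd79b were also highest in DSS library 1, and Ms4a1 was highest in water library 2. Glandular cells of the prostate and pancreas make simple keratins. The part of these tissues and cells in the keratin values was not tested.

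Almost all keratin reads came from the simple keratins and Krt20. Krt8, Krt19, Krt20, Krt18 and Krt7 took 98.1% (95% exact interval 97.99 to 98.22) and 99.0% (98.98 to 99.08) of keratin reads in DSS libraries 1 and 2, and 99.4% (99.3 to 99.4) and 99.1% (99.04 to 99.15) in water libraries 1 and 2. No keratin was called different between DSS and water by edgeR's quasi-likelihood test at a Benjamini-Hochberg adjusted p under 0.05 over all 18788 genes tested, where 0.016% of all genes were called. At an unadjusted p under 0.05, 3 of the 22 tested keratins were higher in DSS (Krt80, Krt86 and Krt90) and 0 were lower, beside 5.06% of all genes higher and 3.39% lower. Krt86 and Krt90 had no reads in water and passed the filter through their DSS reads alone, so they had to differ, and nothing is read from the count. DESeq2 called 1 keratin higher, Krt90, and 0 lower, beside 1.7% and 0.852% of all genes, and that call has the same limit.

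Krt8, the main type II keratin of simple epithelia, had 1052 and 2730.3 CPM in DSS libraries 1 and 2, against 2858 and 1757 CPM in water libraries 1 and 2. DSS library 1 was lowest, DSS library 2 lay close to water library 1, and the groups overlapped. The mean was 1891 ± 1187 CPM in DSS and 2307 ± 778 CPM in water (SD, n = 2 each). The log2 fold change of DSS over water was -0.29 (SE 0.58, edgeR adjusted p = 0.941), and it became 0.24 without DSS replicate 1 and 0.07 without water replicate 1.

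Krt19, a type I keratin that pairs with Krt8, had 604 and 1486 CPM in DSS, against 1743 and 1085 CPM in water. Its libraries stood in the same order as those of Krt8, and its groups overlapped. Its log2 fold change was -0.44 (SE 0.55, edgeR adjusted p = 0.888), and 0.067 without DSS replicate 1. Krt18, the classical type I partner of Krt8, had 91.6 and 171 CPM in DSS, against 242 and 153 CPM in water (log2 fold change -0.59, SE 0.43, edgeR adjusted p = 0.784). Krt7, a type II keratin of simple and glandular epithelia, had 41.8 and 86.0 CPM in DSS, against 132 and 66.6 CPM in water (log2 fold change -0.63, SE 0.48, edgeR adjusted p = 0.798). In each of these genes DSS library 1 was the lowest and water library 1 the highest, and DSS library 2 lay above water library 2. All 4 simple keratins thus had fitted changes below 0 with overlapping groups, and a median of -0.51 on the log2 scale, beside -0.01 over all tested genes. A list of 16 epithelial genes had a median of -0.47, with 15 below 0 and 1 above, so the shift was not particular to keratins. The median of the simple keratins was -0.070 when DSS replicate 1 was left out and -1.18 when DSS replicate 2 was. It was -0.092 with water replicate 1 left out and -0.80 with water replicate 2 left out.

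Krt20, the type I keratin of differentiated surface colonocytes, followed the simple keratins. It had 144 and 294 CPM in DSS, against 387 and 259.5 CPM in water, with overlapping groups. Its mean was 219 ± 106 CPM in DSS and 323 ± 89.9 CPM in water (SD, n = 2 each; log2 fold change -0.56, SE 0.46, edgeR adjusted p = 0.811). It was -1.17 without DSS replicate 2 and -0.14 without DSS replicate 1. Among 6 other genes of differentiated colonocytes, 3 were lower in both DSS libraries than in both water libraries, beside 18.7% of all tested genes. The 3 most abundant, Car1, Ceacam1 and Muc3, overlapped between the groups, with log2 fold changes of -0.19, 0.31 and -0.45. Aqp8, a water channel, had 11.1 and 8.85 CPM in DSS, against 86.3 and 54.5 CPM in water (log2 fold change -2.82, SE 0.34, edgeR adjusted p = 0.247). Car4, a carbonic anhydrase, had 27.1 and 51.9 CPM in DSS, against 148 and 71.0 CPM in water (-1.47, SE 0.48, edgeR adjusted p = 0.528). Neither was called, the difference between their changes and that of Krt20 was not tested, and both were picked from the colonocyte list after their values were seen.

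**Figure D1:**
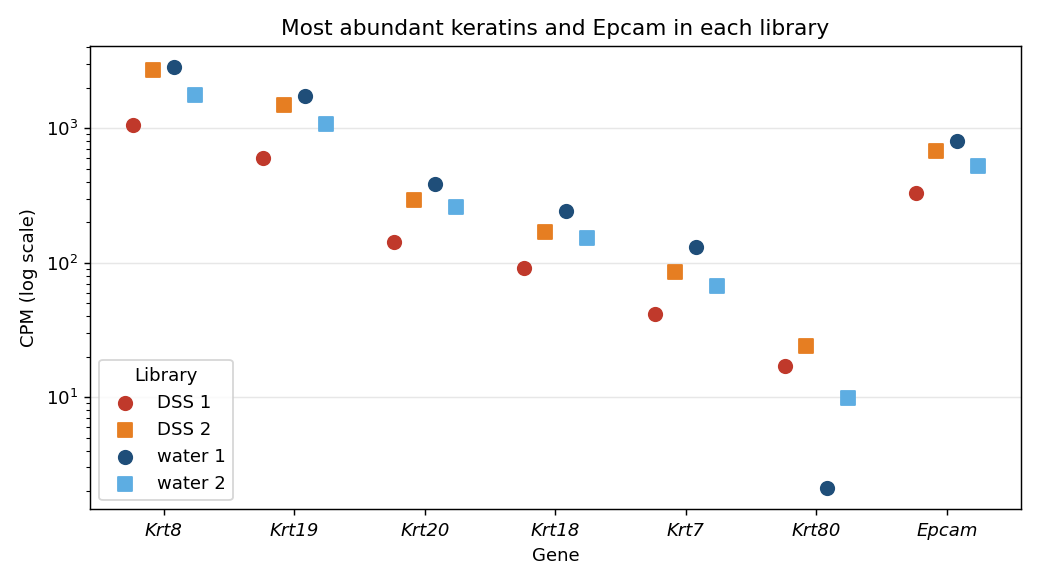
CPM on a log axis of the 5 most abundant keratins, Krt80 and Epcam, with 1 point per library (DSS left of water). In Krt8, Krt19, Krt20, Krt18, Krt7 and Epcam, DSS library 1 is lowest and water library 1 highest, whereas in Krt80 water library 1 is lowest at 2.10 CPM.

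The abundant keratins varied with Epcam from library to library. Epcam had 328 and 678 CPM in DSS, against 804 and 524 CPM in water. The highest library exceeded the lowest by 2.72-fold for Krt8, 2.88-fold for Krt19, 2.64-fold for Krt18, 2.69-fold for Krt20 and 3.15-fold for Krt7. Divided by the Epcam reads of the same library, which removes the scaling of the library, the range narrowed to 1.26-fold for Krt8, 1.19-fold for Krt19, 1.20-fold for Krt18, 1.14-fold for Krt20 and 1.29-fold for Krt7. The narrowing was not particular to keratins. Of 2 other epithelial genes divided in the same way, Cldn7 went from 2.73-fold to 1.23-fold and Cdh1 from 2.11-fold to 1.425-fold. Krt8 had 3.20 and 4.02 reads per Epcam read in DSS and 3.55 and 3.35 in water. Krt19 had 1.84 and 2.19 in DSS and 2.17 and 2.07 in water. In both genes the DSS libraries lay on either side of the water libraries.

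Against the same denominator Krt20 had 0.437 and 0.433 reads per Epcam read in DSS, both below its 0.481 and 0.495 in water. Krt18 had 0.279 and 0.252 in DSS, both below its 0.301 and 0.292 in water. Krt7 had 0.127 in both DSS libraries and 0.164 and 0.127 in water. For any such value, the smallest p that an exact permutation test (two-sided) allows with 2 libraries in each group is 0.333. The sum of 16 epithelial genes, 2200 and 5420 CPM in DSS and 6313 and 3574 CPM in water, was used as a second denominator. Krt8 reads equalled 47.8% and 50.4% of epithelial reads in DSS and 45.3% and 49.2% in water. Against that sum the Krt20 groups overlapped, with 6.53% and 5.42% in DSS and 6.12% and 7.26% in water. The Krt18 groups overlapped too, with 4.16% and 3.15% in DSS and 3.83% and 4.29% in water. The separation of Krt20 and Krt18 per Epcam read thus depended on the denominator, and their ranges over the libraries widened to 1.34-fold and 1.36-fold.

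**Figure D2:**
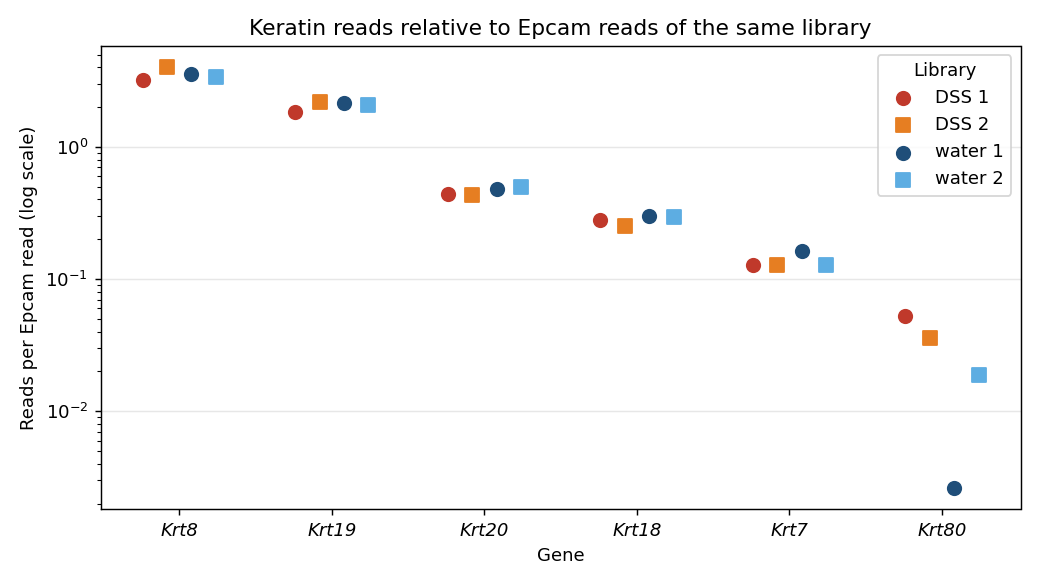
Reads of each keratin per Epcam read of the same library, on a log axis, with 1 point per library (DSS left of water). Krt8, Krt19, Krt20, Krt18 and Krt7 stay within 1.29-fold over the 4 libraries, and Krt80 spans 19.9-fold, with both DSS libraries above both water libraries.

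Levels of different genes were compared as CPM per kilobase of exon in vM21. Krt8 was highest, with 537 and 1394 CPM per kb in DSS and 1459 and 897 CPM per kb in water. Krt19 came next, with 326 and 801 CPM per kb in DSS and 939 and 585 CPM per kb in water. Krt20 had 74.5 and 152 CPM per kb in DSS and 201 and 135 CPM per kb in water, a little above Krt18 with 63.7 and 119 in DSS and 168 and 107 in water. The order Krt8, Krt19, Krt20, Krt18 and Krt7 held in each of the 4 libraries, although the value of Krt7 rests on an exon length of 7049 bases that includes a long alternative transcript. The type II genes Krt7 and Krt8 summed to 543 and 1407 CPM per kb in DSS and 1478 and 907 CPM per kb in water. The type I genes Krt18, Krt19 and Krt20 summed to 464 and 1072 CPM per kb in DSS and 1308 and 827 CPM per kb in water. The ratio of type II to type I was 1.17 and 1.31 in DSS and 1.13 and 1.10 in water. The sources used here do not say how reads that match several places were counted. The listed pseudogene Krt8-ps held 55 and 162 reads in DSS and 89 in both water libraries. The antisense or opposite-strand genes Gm36026 (over Krt8) and Gm671 (over Krt7) held at most 76 and 14 reads per library.

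Krt80, a type II keratin found in many human epithelia, had a fitted change opposite in sign to those of the 5 abundant members. It lies at chr15:101347444-101370162 on the minus strand (ENSMUSG00000037185.9). It had 460 and 850 reads, or 17.1 and 24.2 CPM, in DSS, against 71 and 339 reads, or 2.10 and 9.90 CPM, in water. Both DSS libraries were above both water libraries, and water library 1 was far below water library 2. The mean was 20.7 ± 5.0 CPM in DSS and 6.00 ± 5.51 CPM in water (SD, n = 2 each). Its fold change on the log2 scale was 1.78 (SE 0.70), and neither edgeR (adjusted p = 0.574, unadjusted p = 0.0439) nor DESeq2 (adjusted p = 0.203) called it.

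The value of Krt80 depended on the water libraries. The log2 fold change was 3.30 without water replicate 2, where edgeR called it (adjusted p = 0.0381, beside a range up to 1 over the alternatives that left out a library), and 1.03 without water replicate 1. The call without water replicate 2 assumes that the lone water library varies like the DSS pair, and the same fit called 123 genes higher and 73 lower. The log2 fold change of Krt80 was 1.99 without DSS replicate 1 and 1.51 without DSS replicate 2. Per Epcam read, Krt80 had 0.0522 and 0.0357 reads in DSS and 0.00262 and 0.0189 in water, so the DSS libraries were above the water libraries on that scale too. The antisense gene Gm35853 overlaps Krt80 and held 68 and 84 reads in DSS and 30 and 46 in water. Strandedness is not stated in the sources used here, and reads of the 2 genes may not be separable.

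Krt23, a type I keratin, had 6 and 60 reads in DSS, or 0.223 and 1.71 CPM, against 203 and 96 reads in water, or 6.02 and 2.80 CPM. Both DSS libraries were thus the lower ones. The fitted log2 change was -2.17 (SE 0.99, edgeR adjusted p = 0.646), -4.28 without DSS replicate 2 and -1.37 without DSS replicate 1. Prostate markers were also higher in both water libraries. Pancreas markers summed to 15535 CPM in water library 1 and 38.0 CPM in water library 2, beside 10.9 and 21.7 CPM in DSS. The part of either tissue in Krt23 was not tested. Krt222, a short keratin-like gene, had 4.02 and 2.22 CPM in DSS, against 2.46 and 2.54 CPM in water, and its groups overlapped.

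Squamous keratins were scarce. The 19 rows of this class summed to 6.21 and 4.67 CPM in DSS and 12.6 and 9.14 CPM in water, against summed simple keratins of 1789 and 4473 CPM in DSS and 4974 and 3062 CPM in water. Of the 19 rows, 6 had no reads and 8 could be tested. All 8 had fitted log2 fold changes below 0, from -3.78 to -0.02 with a median of -0.98, beside -0.01 over all genes, and none was called. With a library left out, the number above 0 was 4 of 11 (water 1), 2 of 8 (water 2), 2 of 11 (DSS 1) and 3 of 10 (DSS 2), and the median -0.66, -0.85, -1.62 and -1.74 in that order. Groups did not overlap for 3 of the 8, Krt15, Krt1 and Krt10, each lower in DSS, beside 18.7% of all tested genes. Krt15 and Krt1 passed the filter through their water reads. Krt10 was separated by 1.79 CPM in DSS library 2 and 1.81 CPM in water library 1, so nothing is read from this count. Krt15 and Krt1 also had to lie below 0, so nothing is read from the 8 signs or their median. Without a count filter, 2 of 13 squamous keratins lay above 0 and 11 below, with a median of -0.90.

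Krt15, a type I keratin of basal cells, had 0 and 16 reads in DSS, against 88 and 73 reads in water. In CPM this was 0 and 0.455 in DSS, against 2.61 and 2.13 in water, with a log2 fold change of -3.31 (SE 1.38, edgeR adjusted p = 0.602). The log2 fold change was -9.23 without DSS replicate 2, where only the library without Krt15 reads stood for DSS. Krt1, a type II keratin of the layers above the basal cells, had 0 and 2 reads in DSS and 10 and 22 reads in water, 14.6-fold lower in DSS (95% counting interval 3.72 to 126). Its fitted log2 fold change was -3.78 (SE 1.76, edgeR adjusted p = 0.657), and both DSS libraries were under the floor of 3 counts. Krt10, the type I partner of Krt1, had 42 and 63 reads in DSS and 61 and 95 in water, or 1.56 and 1.79 CPM in DSS and 1.81 and 2.77 CPM in water.

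Krt5, the type II keratin of basal cells, had no reads in either DSS library and 6 and 33 reads in water, at least 5.79-fold lower in DSS against a floor of 3 counts per library. That bound rested on water library 2 and was 1.81-fold with water library 1 as the sole water library. Its partner Krt14 had 72 and 34 reads in DSS and 113 and 32 in water, and the groups overlapped (log2 fold change -0.24, SE 0.87, edgeR adjusted p = 0.973). With a library left out, the log2 fold change of Krt14 was -1.14 (DSS 1), 0.32 (DSS 2), 0.92 (water 1) and -0.88 (water 2). The difference between Krt5 and Krt14 was not tested. Basal cells of the prostate also make Krt5 and Krt14. The 7 prostate markers, at 0.0744 and 0.228 CPM in DSS and 629.9 and 629 CPM in water, moved in the same libraries as Krt15, Krt1 and Krt5, and their part in these keratins was not tested.

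The injury-associated keratins of squamous tissue stayed low. Krt16 and Krt17, type I keratins that keratinocytes make after wounding, had 18 and 6 reads and 4 and 12 reads in DSS, against 14 and 22 reads and 38 and 10 reads in water, and both had overlapping groups. Krt6a had no reads in DSS and 0 and 6 in water, and Krt6b had 6 and 3 reads in DSS and none in water. Krt78 had 13 and 3 reads in DSS and 76 and 3 in water, so its fitted log2 fold change of -2.05 (SE 1.64) rested on water library 1 and was 1.60 without it. Krt12, a keratin of the cornea, had 12 and 1 reads in DSS and 14 and 2 in water. Krt4 and Krt13, the pair of internal squamous epithelia such as the oesophagus, had 0 and 8 and 0 and 16 reads in DSS, and 0 and 15 and 6 and 0 reads in water.

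**Figure D3:**
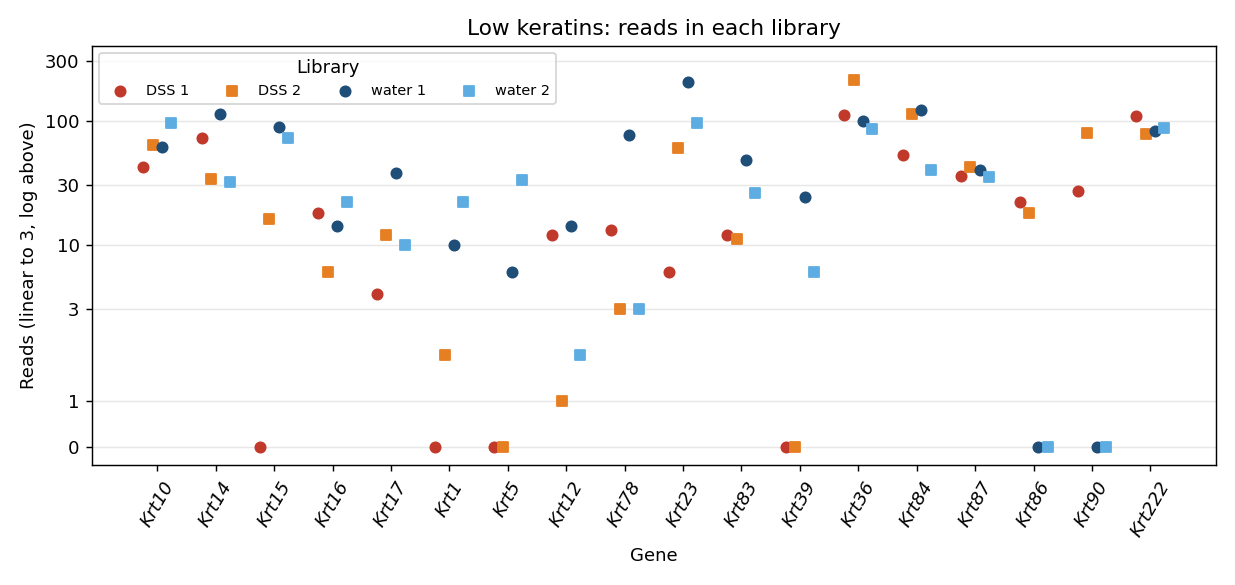
Reads of 18 low keratins in each library (DSS left of water), on an axis that is linear up to 3 reads and logarithmic above. Krt5 and Krt39 have no reads in either DSS library, Krt86 and Krt90 have none in either water library, and Krt15 has none in DSS library 1.

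Among the hair keratins and the remaining type II genes, Krt90 and Krt86 had reads in the DSS libraries alone. Krt90 (ENSMUSG00000048699.4, chr15:101552356-101562950, minus strand) had 27 and 80 reads in DSS, or 1.005 and 2.28 CPM, and 0 in both water libraries. It was at least 18.6-fold higher in DSS against the floor of 3 counts per library, and at least 11.4-fold with DSS library 1 as the sole DSS library. It was not among the genes called by edgeR (adjusted p = 0.401, unadjusted p = 0.00324), and it was among those called by DESeq2 (adjusted p = 0.00173). Both tests are conditioned on a filter that Krt90 passed through its DSS reads alone. Krt86 (ENSMUSG00000067614.5, chr15:101473478-101479986, plus strand), a type II keratin of the hair shaft, had 22 and 18 reads in DSS and 0 in water, at least 7.54-fold higher. It was called by neither edgeR (adjusted p = 0.504) nor DESeq2 (adjusted p = 0.0795).

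Krt86 has close copies beside it. Krt83 had 12 and 11 reads in DSS and 48 and 26 in water, and Krt87 had 36 and 42 in DSS and 40 and 35 in water. Since counting of reads with several matches is not given, reads may be split among these genes, and the values of Krt83, Krt86 and Krt87 are uncertain to that extent. Summed over the 15 hair shaft rows, the level was 8.71 and 11.3 CPM in DSS and 9.84 and 5.61 CPM in water, with overlapping groups. Krt36, a type I hair keratin, had 4.13 and 6.03 CPM in DSS, both above its 2.93 and 2.48 CPM in water (log2 fold change 0.91, SE 0.49, edgeR adjusted p = 0.700). Krt84, a type II hair and nail keratin, had 1.97 and 3.24 CPM in DSS and 3.59 and 1.17 CPM in water, with overlapping groups. Krt39, another type I hair keratin, had no reads in DSS and 24 and 6 in water, at least 4.5-fold lower in DSS, and 1.78-fold with water library 2 as the sole water library. Krt42 had reads in water library 1 alone, 22 of them, and Krt88 had 0 and 4 reads in DSS and 10 and 0 in water. The 9 keratins of the hair follicle sheath had at most 4 reads each in any library, and 7 of them had none.

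Over all 22 tested keratins, 7 log2 fold changes lay above 0 and 15 below, with a median of -0.39. Krt86 and Krt90 had the highest values, so setting them at their bounds could not move this median. Groups did not overlap for 5 higher in DSS (Krt36, Krt80, Krt86, Krt87 and Krt90) and 5 lower (Krt1, Krt10, Krt15, Krt23 and Krt83), beside 20.8% and 18.7% of all tested genes. Members that passed the filter only through their reads in water or in DSS had to differ, so these counts describe the 22 genes and not the family. With DSS replicate 1 left out the signs split into 10 above and 17 below, and with DSS replicate 2 left out into 9 and 17. Leaving out water replicate 1 gave 12 and 13, and water replicate 2 gave 8 and 16.

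**Figure D4:**
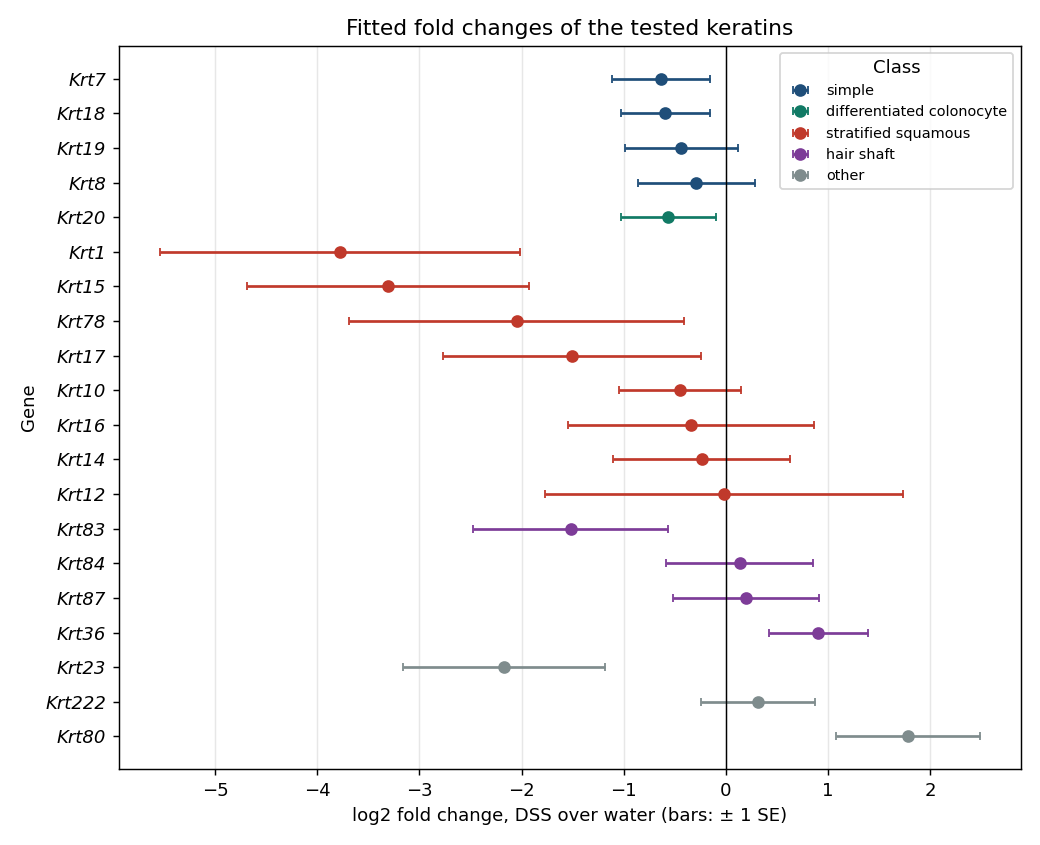
Fitted log2 fold changes of DSS over water with ± 1 SE for 20 of the 22 tested keratins, by class; Krt86 and Krt90, with no water reads, are left out because their fitted values depend on the prior count. The simple keratins and Krt20 lie between -0.63 and -0.29, the squamous keratins between -3.78 and -0.02 with wide errors, and Krt80 stands at 1.78.

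Genes that anchor keratin filaments were described from a list of 27 desmosome, hemidesmosome and cytolinker genes, of which 21 were tested. Of these, 8 log2 fold changes lay above 0 and 13 below, with a median of -0.10, and edgeR called none; at an unadjusted p under 0.05, 0 were higher and 1 was lower, beside 5.06% and 3.39% of all genes. Plec, which encodes the cytolinker plectin, had 374 and 407 CPM in DSS and 352 and 300.1 CPM in water. Dsp, which encodes desmoplakin, the protein that ties keratin to desmosomes, had 139 and 291 CPM in DSS and 232 and 172 CPM in water. Jup (plakoglobin) had 131 and 253 CPM in DSS and 187 and 169 CPM in water. Their groups overlapped in Dsp and Jup, and in Plec both DSS libraries were above both water libraries (log2 fold change 0.26, SE 0.34, edgeR adjusted p = 0.890). The gene with the unadjusted p under 0.05 was Pkp1, a plakophilin of squamous desmosomes, with 8.75 and 14.1 CPM in DSS and 37.0 and 20.8 CPM in water (log2 fold change -1.34, SE 0.41, edgeR adjusted p = 0.505).

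A list of 25 squamous differentiation genes stood beside the squamous keratins. Of 14 tested, 8 lay above 0 and 6 below, with a median of 0.11, and edgeR called none; at an unadjusted p under 0.05, 3 were higher and 2 lower, beside 5.06% and 3.39% of all genes. Trp63, the master regulator of squamous epithelium, had at most 0.234 CPM in any library. Of the 25 genes, 6 had no reads, among them the late products Flg and Sprr3. Others had reads. Lor had 6 and 14 reads in DSS and 16 and 8 in water. Sprr1a had 33.2 and 36.5 CPM in DSS and 27.5 and 29.4 CPM in water (log2 fold change 0.29, SE 0.25, edgeR adjusted p = 0.814). Sfn and Perp, which simple epithelia also express, were the most abundant, with 115 and 264 CPM and 59.1 and 144 CPM in DSS, and 202 and 138 CPM and 122 and 85.1 CPM in water. The 2 lower genes, named after their values were seen, were Tgm3, a transglutaminase, with 6.48 and 8.65 CPM in DSS and 81.3 and 26.5 CPM in water, and Sprr2a1, a small proline-rich protein, with 21.4 and 28.3 CPM in DSS and 79.4 and 41.3 CPM in water. The 3 higher were Dmkn, Tgm1 and Sbsn, with log2 fold changes of 2.53 (SE 0.97), 1.48 (SE 0.49) and 1.38 (SE 0.54). The transglutaminase genes Tgm1 and Tgm3 thus lay on opposite sides of 0. Dmkn had 32 and 43 reads in DSS and 6 and 8 in water. It passed the filter through its DSS reads alone, so nothing is read from the count of higher genes.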

How the data were processed

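RNA was measured in 2 DSS and 2 water libraries. Library preparation, per the labels' protocols, used poly-T beads to capture mRNA and random priming after fragmentation. The authors deposited raw read counts per gene symbol, 1 column per library, without normalization. STAR, HISAT2, featureCounts, HTSeq, DESeq2 and the builds mm10 and GRCm38 appear in the submitters' processing notes, with no role or version. Annotation, the strand setting and the handling of multi-mapped reads are not given in the sources used here.

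Genes were filtered with filterByExpr (minimum count 10, minimum total 15), leaving 18788 genes with 99.4% of counts. TMM scaling was used, and tests were run in edgeR 4.0.16 (robust glmQLFit, then glmQLFTest, with no term besides group) in R 4.3.3, with Benjamini-Hochberg adjusted p under 0.05 as the call. The fit was tested on simulated data. SE is the log2 fold change over the square root of the F statistic. Alternatives used DESeq2 1.42.0, limma 3.58.1 (voom), other scalings and filters, and left out each library in turn. Intervals (95%) and floors (3 counts per library) cover counting error only. Among keratin counts of 1 to 10, 19 of 23 were even, beside 72.1% over all genes. A count may therefore not be 1 molecule, and the counting intervals, which treat each read as independent, may be too narrow. Nothing in the labels says that replicates are separate mice. The spread behind each p-value is that between libraries and may be technical. Replicates were not duplicates (chi-square per degree of freedom 385 for the DSS pair and 160 for the water pair).

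The keratins and gene lists were chosen with earlier results of these data known. Every tested keratin was named, as were untested keratins reaching 10 reads in a library. From the other lists the 4 members of highest CPM could be named, and those named beyond these were chosen after their values were seen. Coordinates are from GENCODE vM21, promoter sequences from RefSeq.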

Additional observations from a re-analysis of the deposited data

How the results depend on the processing

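Depth limits the squamous and hair keratins, most of which had under 100 reads per library. The number of genes called, 3 in all, became 1051 without a count filter, 480 with DESeq2, 0 with limma-voom and 0 with a replicate block, and ranged from 3 to 196 when 1 library was left out. The number of keratins called, 0 of 22, was 3 of 32 without a count filter (Krt15, Krt80 and Krt90), beside 1051 of 27735 genes. It was 1 of 22 with DESeq2 (Krt90), beside 480 of 18788 genes. Krt90 had no reads in water, and Krt15 had 0 and 16 reads in DSS, so nothing is read from these counts. The labels state no pairing of the libraries. The deviations of DSS 1 and water 1 from their group means correlated at -0.142 across genes. With 2 libraries in each group, that value can neither show nor exclude a pairing. The replicate block called 0 keratins. The crossed block, chosen after seeing the data, called 44 genes and 0 keratins. Cause was not tested for any of these.

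The median of the squamous keratins was -0.45 when genes needed 1 CPM or more in 2 libraries (3 genes tested) and -0.44 without immunoglobulin, T cell receptor and mitochondrial genes (7 tested). That of the class of other keratins, 1.05, was -0.48 without a count filter (6 tested), 0.32 with the CPM filter (3 tested), 1.19 with limma-voom and 1.20 with the replicate block. Krt90 in this class and Krt86 in the hair shaft class passed the main filter through their DSS reads alone. Nothing is therefore read from the median of either class. With 1 library left out, medians ranged from -1.18 to -0.070 (simple), -1.17 to -0.14 (Krt20), -1.74 to -0.66 (squamous), -0.17 to 1.00 (hair shaft), -0.18 to 0.68 (other) and -1.15 to -0.090 (all tested keratins). Single genes that changed sign then were Krt8 (-1.13 to 0.24), Krt19 (-1.23 to 0.067), Krt12 (-2.90 to 1.89), Krt14 (-1.14 to 0.92), Krt16 (-1.62 to 0.34), Krt78 (-3.71 to 1.60), Krt84 (-0.45 to 1.12) and Krt222 (-0.18 to 0.68). Krt12 also changed sign with DESeq2 (0.013). Of 254 values of single keratins under alternatives, 235 kept sign and call. No keratin was called in the main fit, and several alternatives refit the same libraries, so this count does not measure stability.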

Other observations

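Intermediate filament genes other than keratins were described from a list of 17, which covers mesenchymal, muscle, neural and nuclear members. Of 16 tested, 5 log2 fold changes lay above 0 and 11 below, with a median of -0.24, and edgeR called none. Vim, the vimentin of mesenchymal and immune cells, had 845 and 861 CPM in DSS and 661 and 1103 CPM in water. The water libraries stood in the opposite order to that of Krt8, with water library 2 above water library 1. Des, the desmin of muscle, had 119.9 and 110.0 CPM in DSS and 107 and 167 CPM in water. Among the nuclear lamin genes, Lmna had 359 and 383 CPM in DSS and 410.3 and 453 CPM in water. Lmnb2 had 24.9 and 37.5 CPM in DSS and 70.2 and 36.9 CPM in water, with overlapping groups. Lmnb1 had 167 and 159.9 CPM in DSS and 45.6 and 99.5 CPM in water (log2 fold change 1.17, SE 0.43, edgeR adjusted p = 0.562). Gfap, the filament of glia, was picked for its values. It had 19.4 and 12.7 CPM in DSS and 30.4 and 48.6 CPM in water (log2 fold change -1.30, SE 0.36, edgeR adjusted p = 0.487).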
